A study of Mus musculus with 15 samples.

Results

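LSK cells are the lineage-negative, Sca-1+ and c-Kit+ fraction of mouse bone marrow, which holds hematopoietic stem cells and early progenitors. AG221 and ruxolitinib, each given alone, were compared directly in LSK cells that carry mutations of both Idh2 and Jak2. The comparison used the 3 AG221 samples (A8, A9 and A10) and the 3 ruxolitinib samples (A14, A16 and A17), 6 of the 15 samples in the series, chosen by their labelled treatment. It covered the 17834 of 45232 gene IDs that passed a filter on low counts. No vehicle sample is part of the contrast. Values of a gene are given below in the order A8, A9, A10 for AG221 and A14, A16, A17 for ruxolitinib.

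Both groups were recipients of CD45.2+ bone marrow carrying the R140Q allele of Idh2 and the V617F allele of Jak2 on a C57BL/6 background. The mice had received 40 mg/kg of AG221 or 60 mg/kg of ruxolitinib by gavage for 21 to 28 days, and the methods of the study also name a second AG221 dose. In all of them the alleles had been induced with Mx1-Cre, and the marrow was transplanted with CD45.1 wild-type competitor cells into irradiated CD45.1 hosts. Mx1-Cre is switched on by an interferon response and recombines in cells outside the blood system as well, and the sort kept donor CD45.2+ LSK cells only. Vehicle and combined treatment (3 samples each) had the same donor genotype, and WT LSK cells (3 samples) served as the unmutated reference. These 9 samples are used below as reference levels. The methods state that male and female adult mice were used, without the age or sex behind each sample, and neither the labels nor the methods say whether a sample came from 1 mouse or from pooled mice. Its p-values therefore measure the spread between samples, which may be partly technical.

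JAK2 sits below the receptors for erythropoietin, thrombopoietin, GM-CSF and interferon-gamma, and passes their signal on by phosphorylating STAT factors, which then enter the nucleus. The V617F form signals without ligand and drives myeloproliferative neoplasms, and ruxolitinib blocks the catalytic site of JAK1 and JAK2. IDH2 is a mitochondrial isocitrate dehydrogenase. Its R140Q form makes 2-hydroxyglutarate, which inhibits 2-oxoglutarate-dependent enzymes such as the TET DNA demethylases and histone demethylases, and AG221 (enasidenib) inhibits that form. The comparison thus sets a drug on a signalling kinase against a drug on a metabolic enzyme in the same mutant cells.

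Total counts ran from 22004150 to 28369651 per sample. The samples did not separate cleanly by drug over the whole transcriptome. AG221 sample A9 had a Pearson r over genes of 0.976 with both A14 and A17 but of 0.960 and 0.966 with A8 and A10, and ruxolitinib sample A16 had an r of 0.969 with A10 but of 0.964 and 0.967 with A14 and A17. Genes with GC-rich transcripts moved with this. In the quintile of genes with the highest GC content the median log2 CPM (counts per 1000000, scaled by TMM), relative to the mean of the 6 samples, was -0.47, 0.30 and -0.28 in the AG221 samples and 0.31, -0.07 and 0.23 in the ruxolitinib samples. In the quintile of the shortest transcripts it was 0.18, 0.07 and 0.17 with AG221 and -0.13, -0.08 and -0.11 with ruxolitinib. Thus A9 resembled A14 and A17 in its GC-rich genes, whereas the shortest transcripts separated the samples by drug. The part of either in the results below was not tested, except by refitting with GC content offsets.

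**Figure D1:**
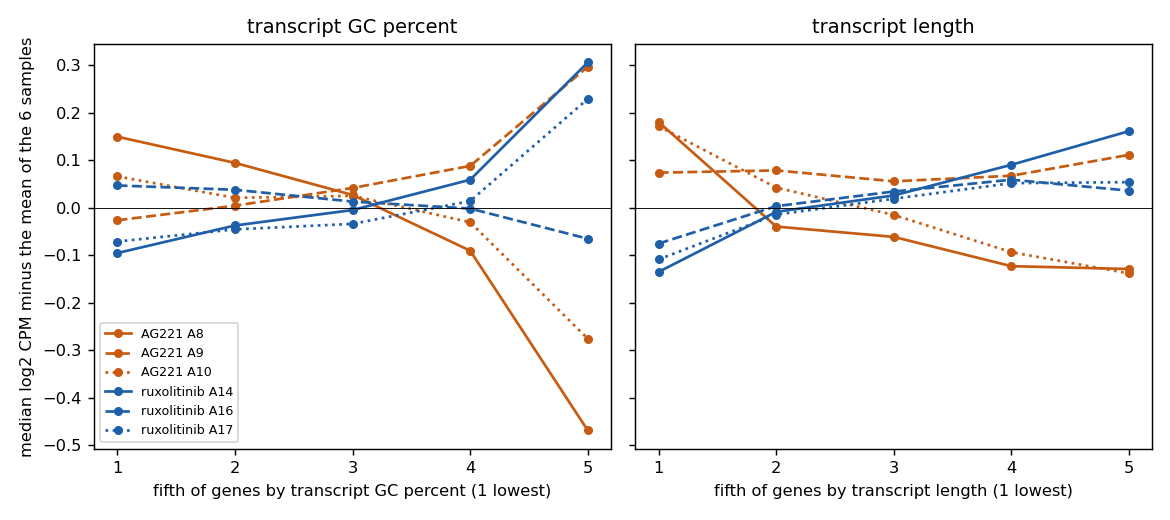
Median log2 CPM of each sample minus the mean of the 6 samples (y axis) in quintiles of the tested genes by transcript GC percent (left, x axis) and by transcript length (right, x axis), with AG221 samples in orange and ruxolitinib samples in blue. In the highest GC quintile A9 lies with A14 and A17, and in the quintile of the shortest transcripts the 3 AG221 samples lie above the 3 ruxolitinib samples.

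The contrast was fitted with edgeR's quasi-likelihood test on all 15 samples with 5 groups, and genes with a Benjamini-Hochberg adjusted p under 0.05 were called. Of the 17834 genes tested, 612 (3.43%) were called. Of these, 367 (2.06%) were higher with AG221 and 245 (1.37%) were higher with ruxolitinib. Groups of samples did not overlap for 20.8% of all genes tested, 12.2% with AG221 above and 8.64% with ruxolitinib above. Upper quartile normalization, which moved the median log2 fold change of all genes by 0.17, gave 701 higher and 185 lower genes. The number rests on single samples. It was 43 without A8, 118 without A10, 17 without A14, 4968 without A9 and 0 without A17, where 3202 genes still had an unadjusted p under 0.05, and a fit of the 6 samples alone called 0 genes with 2574 at that level. No gene was called in all 6 fits with a sample left out, and 13 genes were called in 5 of them. All 612 genes kept their direction in each of the 6. They had been called on these same samples, so a change of direction was unlikely from the start.

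**Figure D2:**
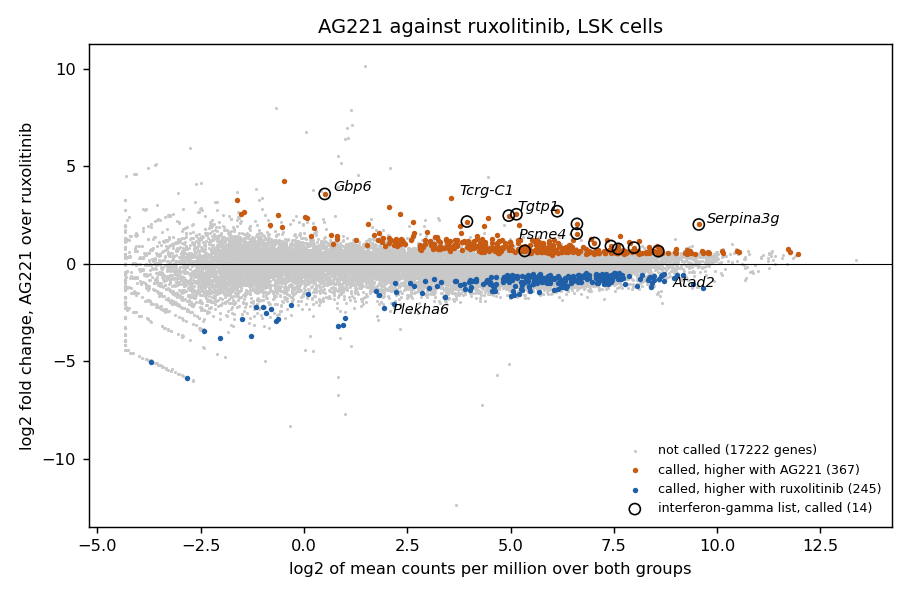
Log2 fold change of AG221 over ruxolitinib (y axis) against the log2 of the mean CPM over both groups (x axis) for every tested gene, with levels under 0.05 CPM drawn at the left edge. Called genes higher with AG221 are orange (367), those higher with ruxolitinib blue (245), and circles mark the 14 called genes of the interferon-gamma list, all above 0.

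Genes induced by interferon-gamma were higher with AG221 than with ruxolitinib. The interferon-gamma list holds interferon-inducible GTPases of both the immunity-related and the guanylate-binding families, immunoproteasome subunits and interferon regulatory factors. Of its 39 tested members 14 were called higher and 0 lower, and the samples did not overlap for 25 members, all with AG221 above. The median log2 fold change was 0.83, against -0.04 for all genes tested, and lay between 0.70 and 1.01 in every alternative fit. Type I interferon-stimulated genes behaved in the same way. Of 35 tested members 8 were called higher and 0 lower, 22 did not overlap with AG221 above against 1 with ruxolitinib above, and the median was 0.69. The number of calls rested on single samples in both lists. For the interferon-gamma list it was 4 without A8, 5 without A10, 2 without A14, 0 without A17, and 24 higher with 3 lower without A9. For the type I list it was 2 without A8 or A10, 0 without A14 or A17, and 17 higher with 2 lower without A9. Without A17, 34 of 39 and 30 of 35 members still had a fold change above 0.

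The GTPases that vesiculate and disrupt the vacuoles of intracellular parasites were well separated by drug. Tgtp1 (ENSMUSG00000078922, minus strand of GRCm38 chr11:48985327-48994172) was at 62.2, 48.4 and 47.3 CPM with AG221 and at 12.1, 7.56 and 8.84 CPM with ruxolitinib. Every AG221 sample lay above every ruxolitinib sample, with a log2 fold change of 2.47 ± 0.36 (SE) and an adjusted p of 0.012 (edgeR). Its neighbor Tgtp2 was at 188, 127 and 156 CPM against 48.3, 37.7 and 28.1 CPM (2.05 ± 0.31, adjusted p = 0.012). The Tgtp1 and Tgtp2 transcripts are near-identical copies, so how their reads were divided between them is uncertain. Igtp, a GTPase of the same family that regulates the others, was at 188, 121 and 126 CPM against 53.6, 50.8 and 43.7 CPM (1.55 ± 0.29, adjusted p = 0.022). Irgm1, another regulatory member, was at 206, 142 and 182 CPM against 85.7, 85.7 and 81.8 CPM (1.07 ± 0.19, adjusted p = 0.019). The ruxolitinib samples were close to each other in both genes, and the AG221 samples were more spread. Iigp1 had the largest log2 fold change of the family with a mean above 5 CPM, 2.70 ± 0.43. Among the guanylate-binding proteins, Gbp7 (0.91 ± 0.18) and the scarcely expressed Gbp6 (3.58 ± 0.75) were called.

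The upstream sequence of 5 called genes is shown because each holds at least 1 of 2 elements that STAT and interferon regulatory factors are known to bind. They were picked for holding a match. The GAS element, bound by STAT dimers, was searched as TTCNNNGAA, and the core of the interferon-stimulated response element (ISRE) as GAAANNGAAA on both strands, in the 250 bases before each RefSeq transcript start (GRCm38.p6). Matches stand in capitals, GAS first where both are present, and each stretch is written 5′ to 3′ along the strand of its gene.
Tgtp1, chr11:48992294-48992354, minus strand: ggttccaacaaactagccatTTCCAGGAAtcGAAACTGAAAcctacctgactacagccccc
Tgtp2, chr11:49064253-49064313, minus strand: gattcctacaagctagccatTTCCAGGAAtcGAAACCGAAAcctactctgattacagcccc
Igtp, chr11:58199491-58199551, plus strand: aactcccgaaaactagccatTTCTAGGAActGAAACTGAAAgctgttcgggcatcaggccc
Irgm1, chr11:48871421-48871470, minus strand: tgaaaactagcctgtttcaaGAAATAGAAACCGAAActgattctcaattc
Serpina3g, chr12:104236094-104236142, plus strand: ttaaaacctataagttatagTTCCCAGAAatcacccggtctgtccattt
In Tgtp1, Tgtp2 and Igtp a GAS match is followed directly by an ISRE match without overlap, starting 88, 81 and 45 bases before the transcript start. Irgm1 holds 2 overlapping ISRE matches and no GAS match, and Serpina3g holds a GAS match alone. Over all 27025 genes with a RefSeq promoter, 8.13% hold a GAS match and 3.46% an ISRE match in this window. Of the 14 called genes of the interferon-gamma list 11 were in the promoter table, too few for a share to be tested, and of these 6 held a GAS match and 5 an ISRE match. In the list as a whole, 26 tested members were in the table, and 11 (42.3%) held a GAS match and 11 (42.3%) an ISRE match. Of all genes called higher with AG221, 268 were in the table, and 18 of them (6.72%) held a GAS match and 16 (5.97%) an ISRE match. Over all genes tested these shares were 7.36% and 3.40%. The matches describe these letters only and do not show binding.

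Serpina3g, an intracellular inhibitor of cysteine proteases that is induced by interferon-gamma, was at 1278, 960 and 1384 CPM with AG221 and at 357, 315 and 223 CPM with ruxolitinib. The difference was 2.02 ± 0.33 on the log2 scale (adjusted p = 0.015), and no sample overlapped. Its paralog Serpina3f was called as well (2.54 ± 0.63, adjusted p = 0.045) and may share reads with it. Subunits of the immunoproteasome and its activator, which cut proteins into peptides for MHC class I, changed less. Psmb10 was at 252, 225 and 258 CPM against 148, 143 and 142 CPM (0.77 ± 0.16, adjusted p = 0.030), and Psme2 had a log2 fold change of 0.83 ± 0.19 (adjusted p = 0.038). Of 18 genes of MHC class I presentation 1 was called, B2m, the invariant light chain (0.61 ± 0.15, adjusted p = 0.041), and the list median was 0.07, and between -0.03 and 0.27 in the alternative fits. This list gave 0 calls with GC content offsets and without A8, A10, A14, A16 or A17. Without A9 it gave 5 higher and 6 lower. Of 10 genes of MHC class II presentation 0 were called (median 0.54).

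Among type I interferon-stimulated genes, Irf7, the factor that amplifies interferon production, was at 17.2, 19.9 and 25.5 CPM with AG221 and at 6.41, 7.86 and 6.64 CPM with ruxolitinib (log2 fold change 1.58 ± 0.23, adjusted p = 0.012). Rtp4, an interferon-induced chaperone of membrane receptors, was at 20.3, 19.6 and 24.9 CPM against 4.57, 5.47 and 6.94 CPM (1.93 ± 0.31, adjusted p = 0.014). Both genes were low in all 3 ruxolitinib samples, A16 included. Irf9, the DNA-binding part of the ISGF3 complex, was called too (0.96 ± 0.19, adjusted p = 0.025), as were Xaf1 and the nucleic acid sensor Zbp1. Stat2 had values on the other side, 25, 47.3 and 30.3 CPM against 62.3, 50.5 and 67.2 CPM, with an adjusted p of 0.052.

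**Figure D3:**
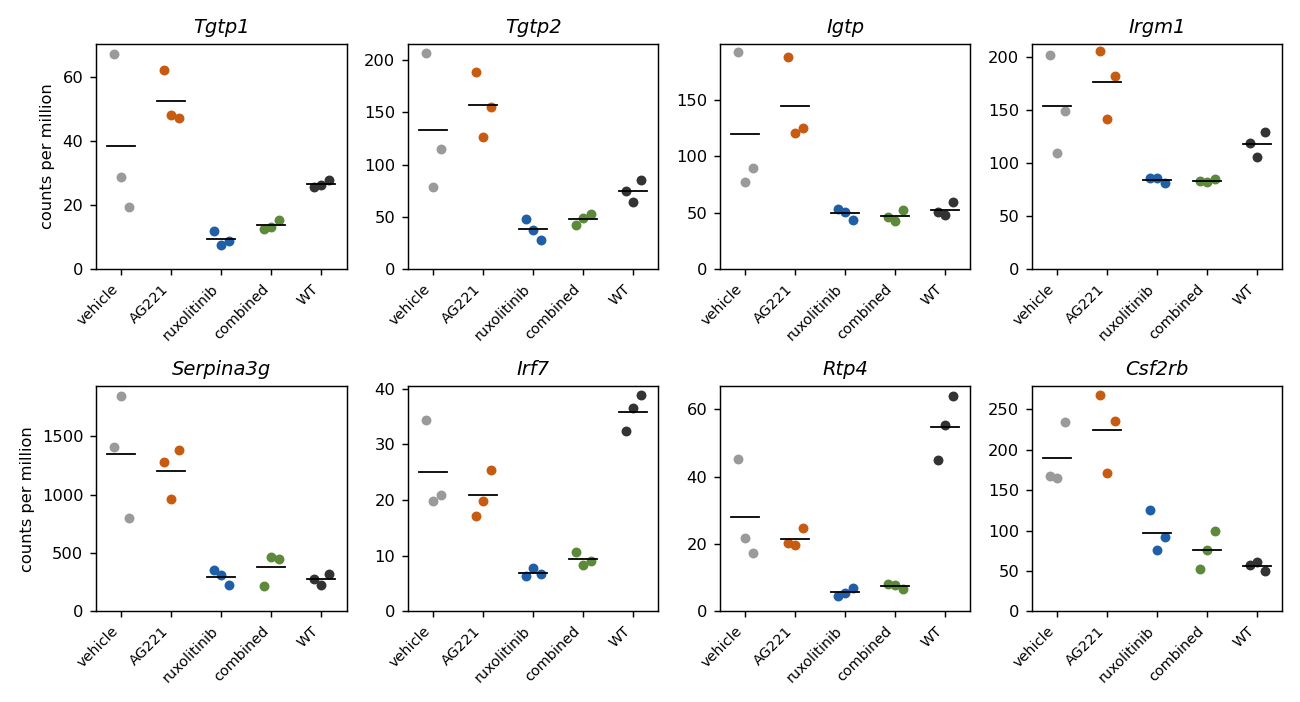
CPM (y axis, from 0) of 8 genes in each sample by group (x axis), with a line at the group mean of 3 samples. In all 8 genes the AG221 samples lie above the ruxolitinib samples. The ruxolitinib samples lie near those of combined treatment, whose names carry the letter B instead of A.

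Levels in the other groups are given for reference. The names of the combined and WT samples carry the letter B and those of vehicle, AG221 and ruxolitinib the letter A. The meaning of the letters is not given, so group and letter cannot be told apart for combined treatment and WT. Each monotherapy was also tested against vehicle in the same fit, and the 2 comparisons share the vehicle samples, so their values are only set side by side. Tgtp1 was at 67.5, 28.8 and 19.5 CPM in the vehicle samples and at 12.7, 13.3 and 15.3 CPM with combined treatment. Relative to vehicle its log2 fold change was 0.45 with AG221 (adjusted p = 0.42) and -2.03 with ruxolitinib (adjusted p = 0.11). Vehicle samples were more spread than either treated group, and overlapped with AG221 but not with ruxolitinib. Over the interferon-gamma list the median log2 fold change from vehicle was 0.20 with AG221 and -0.71 with ruxolitinib, and over the type I list it was -0.26 and -0.91. As a mean over the interferon-gamma list, relative to the vehicle mean, log2 CPM was 0.36, 0.19 and 0.15 in the AG221 samples and -0.53, -0.74 and -0.95 in the ruxolitinib samples. The vehicle samples ran from -0.58 to 0.66, overlapping both, and the WT samples were at -0.21, -0.12 and -0.08. As a mean over the type I list, relative to the vehicle mean, log2 CPM was -0.23, -0.34 and -0.05 in the AG221 samples and -0.88, -0.84 and -0.86 in the ruxolitinib samples, and it was above 0 in all 3 WT samples. Against vehicle, 3 genes (0.0168%) were called with ruxolitinib and 176 (0.987%) with AG221. The 3 were Irf7 (-1.84, adjusted p = 0.026), Rtp4 (-2.31, adjusted p = 0.026) and Tcrg-C1 (-3.17, adjusted p = 0.026). For these, AG221 had log2 fold changes of -0.26, -0.38 and 0.18 from vehicle, none of them called.

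Tcrg-C1, the constant region of a T cell receptor gamma chain, had the largest fold among the called genes with a mean above 5 CPM. It was at 28.1, 14.4 and 22 CPM with AG221 and at 2.21, 2.91 and 1.19 CPM with ruxolitinib, a 10.2-fold difference (log2 3.35 ± 0.43, adjusted p = 0.0087). Of 13 tested T and NK cell markers 0 were called and 7 had a fold change above 0. Their summed level moved the same way as Tcrg-C1 without overlap, 704 to 828 CPM with AG221 and 473 to 571 CPM with ruxolitinib. The mean log2 CPM over the list, relative to the vehicle mean, did overlap. It was 0.09, 0.89 and 0.47 with AG221 and 0.46, 0.91 and -0.34 with ruxolitinib. Cd3d, which defines T cells, was at 0.470, 0.516 and 0.727 CPM against 1.65, 1.62 and 0.112 CPM. Cd3d rested on between 3 and 38 reads per sample. The part of T and NK cells in the Tcrg-C1 result was not tested.

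Signalling parts and targets of the JAK/STAT pathway differed less evenly. Jak2 itself, the ruxolitinib target, was at 26.7, 31.5 and 27.0 CPM with AG221 and at 22.6, 21.1 and 20.8 CPM with ruxolitinib (log2 fold change 0.40 ± 0.16, adjusted p = 0.15). The counts do not tell the mutant allele from the normal one. Of 11 JAK kinases and STAT factors 0 were called in either direction, and 8 had a fold change below 0. The median was -0.76, and -0.48 with GC content offsets. Calls in this list moved with the fit. They were 2 higher and 5 lower with DESeq2, 2 and 7 without A9, and 0 and 2 with GC content offsets. Stat5b, which carries the signal of erythropoietin and thrombopoietin receptors with Stat5a, was at 80.6, 173 and 86.5 CPM against 265, 155 and 261 CPM. Here A9 and A16 were close to each other and apart from their own groups.

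Of 28 JAK/STAT target genes 3 were called higher with AG221 and 0 lower, and the list median was 0.05, turning to -0.40 without A9. Pim1, a kinase gene transcribed through STAT5, was at 21.5, 21.5 and 22.2 CPM with AG221 and at 13.9, 5.34 and 9.51 CPM with ruxolitinib (1.18 ± 0.27, adjusted p = 0.036). Ccnd2, cyclin D2, was at 430, 452 and 462 CPM against 294, 344 and 297 CPM (0.52 ± 0.11, adjusted p = 0.029). Both separated the samples by drug, and the AG221 samples lay within a narrow range. The third was Ifitm3, an antiviral membrane protein that interferon also induces (1.17 ± 0.20, adjusted p = 0.017). Of 25 cytokine receptor genes 2 were called, both beta chains of cytokine receptors that signal through JAK2. Csf2rb, the common chain of the GM-CSF, interleukin-3 and interleukin-5 receptors, was at 268, 171 and 235 CPM against 126, 75.6 and 91.5 CPM (1.20 ± 0.25, adjusted p = 0.029). Its paralog Csf2rb2, the beta chain specific to interleukin-3, which may share reads with it, had a log2 fold change of 1.96 ± 0.46 (adjusted p = 0.040). The other 23 receptors were not called, and the list median was -0.37.

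Ribosomal protein genes were higher with AG221, with more calls than any other list. Of 79 cytoplasmic ribosomal protein genes 41 were called higher and 0 lower, and 71 did not overlap with AG221 above. The median log2 fold change was 0.55, between 0.50 and 0.73 in the alternative fits. Together they took 3.13%, 2.83% and 3.38% of all counts with AG221 and 2.14%, 2.31% and 2.31% with ruxolitinib, so no sample overlapped (exact two-sided permutation test p = 0.1, the smallest that 3 against 3 samples allow). Rpl11, which also binds and restrains MDM2, was at 228, 203 and 243 CPM against 140, 145 and 146 CPM (0.65 ± 0.13, adjusted p = 0.026). Rpl3 was at 1132, 891 and 1128 CPM against 683, 762 and 734 CPM (0.53 ± 0.12, adjusted p = 0.033). Vehicle samples had 151, 143 and 151 CPM of Rpl11 and 790, 796 and 781 CPM of Rpl3, within or near the ruxolitinib range. Over the list the median from vehicle was 0.48 with AG221 and -0.05 with ruxolitinib. These transcripts are short, and the quintile of the shortest transcripts had a median log2 fold change of 0.24 between the drugs. The part of transcript length in the result was not tested. The calls also depended on single samples, with 0 ribosomal protein genes called without A8, A10, A14 or A17 and 66 higher without A9, and many of these genes have processed pseudogenes that can take their reads.

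Some respiratory chain genes were higher with AG221. Of 10 tested mitochondrially encoded genes 3 were called higher with AG221, all subunits of complex I, and all 10 had a fold change above 0 (median 0.58). mt-Nd4 was at 526, 440 and 504 CPM with AG221 and at 268, 335 and 302 CPM with ruxolitinib (0.70 ± 0.13, adjusted p = 0.019). Mitochondrial genes took 1.38% ± 0.135 (SD, n = 3) of counts with AG221 and 0.949% ± 0.0984 (SD, n = 3) with ruxolitinib (exact two-sided permutation test p = 0.1). Mitochondrial rRNA (0.446% against 0.268%) and the 100 most abundant genes (17.3% against 15.0%) moved with it, each with the same exact permutation p of 0.1, and their part in the result was not tested. Of 78 nuclear genes of oxidative phosphorylation 4 were called higher and 0 lower, and 43 did not overlap with AG221 above (median 0.46), while 18 had a fold change that was not above 0. No gene of either list was called without A8, A10, A14 or A17, and without A9 the nuclear list had 43 higher and 13 lower and the mitochondrial list 7 higher. Ndufa4, a subunit first assigned to complex I and found in complex IV, was at 484, 356 and 460 CPM against 250, 294 and 281 CPM (0.65 ± 0.16, adjusted p = 0.043), and the complex I subunit Ndufb3 was called with 0.62 ± 0.15 (adjusted p = 0.039). Vehicle had 318, 308 and 346 CPM of mt-Nd4 and 280, 222 and 271 CPM of Ndufa4, on the side of ruxolitinib. Of 34 proteasome subunits 2 were called higher, Sem1 (0.64 ± 0.13, adjusted p = 0.027) and Psma3 (0.65 ± 0.17, adjusted p = 0.049), with a list median of 0.44. Of 59 MYC target and ribosome biogenesis genes 0 were called in either direction, with a median of 0.33.

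**Figure D4:**
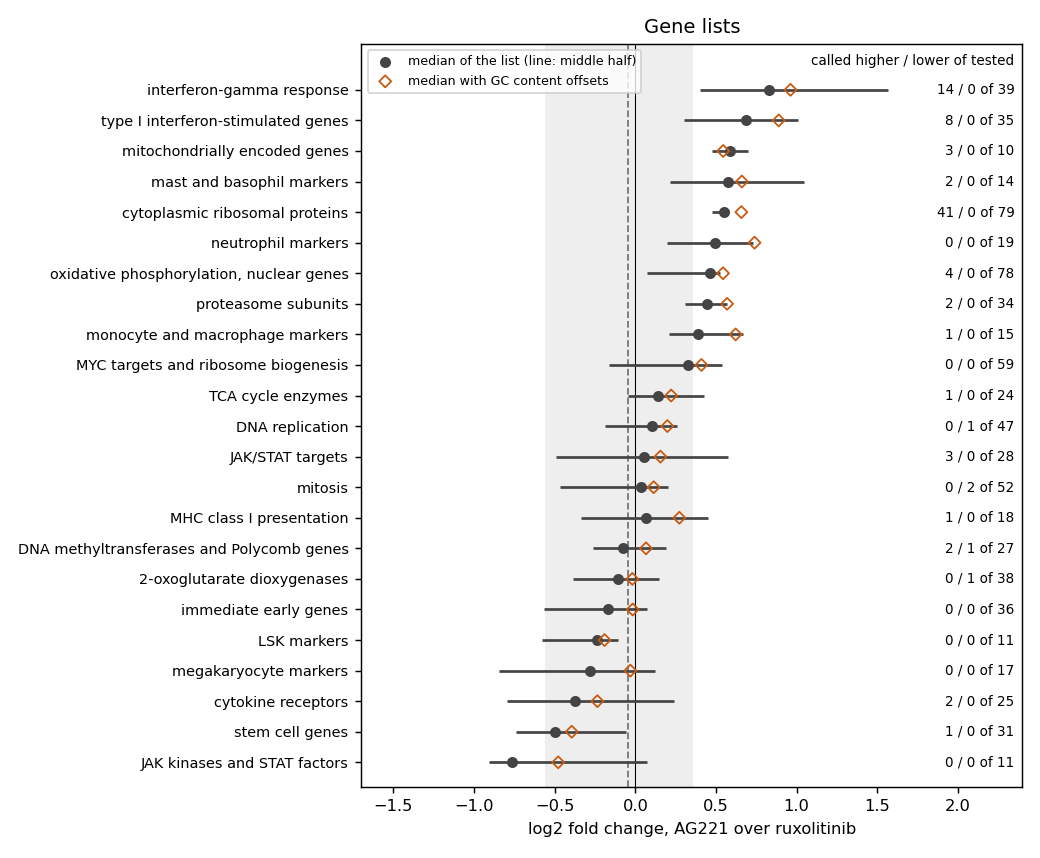
Median log2 fold change of AG221 over ruxolitinib (x axis) for 23 gene lists (y axis), with a line from the lower to the upper quartile of each list, orange diamonds for the medians with GC content offsets, and the calls printed at the right. The grey band runs between the quartiles of all genes around a dashed line at their median of -0.04. Of the 23 lists drawn, the interferon-gamma list has the highest median (0.83) and the JAK kinases and STAT factors the lowest (-0.76).

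Calls among metabolic and epigenetic enzymes around the AG221 target are set beside the 3.43% called over all genes. Idh2 was at 55.1, 335 and 65.9 CPM with AG221 and at 480, 124 and 425 CPM with ruxolitinib (log2 fold change -1.17 ± 0.60, adjusted p = 0.23). Without A9 the log2 fold change was -2.50 and the gene was called (edgeR adjusted p = 0.0025). The groups overlapped, since A9 lay with A14 and A17, and A16 was the lowest ruxolitinib sample, the order that GC-rich genes followed. Of 8 isocitrate and 2-hydroxyglutarate dehydrogenases 0 were called (median 0.23).

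Of 38 dioxygenases that use 2-oxoglutarate 1 was called, Kdm6a, an H3K27 demethylase. It was at 43.6, 71.2 and 47.2 CPM with AG221 and at 91.9, 89.5 and 89.7 CPM with ruxolitinib (-0.74 ± 0.18, adjusted p = 0.040). Of 27 DNA methyltransferase and Polycomb genes 2 were higher and 1 lower with AG221. Suz12, a core subunit of the H3K27 methyltransferase complex PRC2, was at 78.1, 78.4 and 65.2 CPM against 39.5, 35.3 and 36.8 CPM (0.99 ± 0.16, adjusted p = 0.014). Asxl1, mutated in myeloid neoplasms, had a log2 fold change of 0.67 ± 0.13 (adjusted p = 0.022). Its partner in removing ubiquitin from histone H2A, Bap1, was at 110, 198 and 123 CPM against 241, 257 and 243 CPM (-0.78 ± 0.17, adjusted p = 0.036). Asxl1 and Bap1 were thus called in opposite directions.

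The genes with the smallest p-values among those higher with AG221 also included regulators of protein degradation and RNA. Psme4, the proteasome activator PA200, was at 45.7, 45.2 and 40.3 CPM with AG221 and at 20.6, 19.7 and 20.3 CPM with ruxolitinib (1.11 ± 0.14, adjusted p = 0.0087). Spred1, an inhibitor of RAS and MAPK signalling, was at 28.1, 28.6 and 22.7 CPM against 9.09, 11.5 and 9.14 CPM (1.41 ± 0.18, adjusted p = 0.0087). In both, AG221 samples lay within a narrow range that included A9, and vehicle lay between the drugs, with 24.4, 26.2 and 24.1 CPM of Psme4 and 16.9, 12.9 and 14.7 CPM of Spred1. Spred1 was the one gene called of 15 MAPK feedback genes. The deubiquitinases Otud4 (1.07 ± 0.14) and Usp25 (1.21 ± 0.18), the ubiquitin ligase Mib1, which activates Notch ligands (1.06 ± 0.16), and N4bp1, an endoribonuclease that degrades cytokine and viral RNA (1.01 ± 0.15), were called as well. Larp1, which binds ribosomal protein mRNAs and holds back their translation under mTORC1 control, was at 200, 176 and 148 CPM against 69.5, 77.0 and 69.7 CPM (1.28 ± 0.18, adjusted p = 0.012). Saa3, an acute phase gene, was at 13.6, 3.75 and 4.73 CPM against 2.12, 0.214 and 0.597 CPM (2.93 ± 0.74, adjusted p = 0.047). Its call held without A9 and was lost without any 1 of the other 5 samples.

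Genes higher with ruxolitinib were mostly long transcripts, with 137 of the 245 in the quintile of the longest transcripts and 2 in that of the shortest. Among the 365 genes higher with AG221 that have an annotated length these numbers were 116 and 77. With GC content offsets 174 of the 245 genes were still called, beside 348 of the 367 higher with AG221. Plekha6, a pleckstrin homology protein of cell junctions, was at 1.37, 1.45 and 1.13 CPM with AG221 and at 5.13, 7.48 and 6.49 CPM with ruxolitinib (log2 fold change -2.27 ± 0.28, adjusted p = 0.0087). Tubgcp6, a subunit of the gamma-tubulin ring complex that nucleates microtubules, was at 40.4, 57.4 and 43.1 CPM against 104, 118 and 100 CPM (-1.20 ± 0.17, adjusted p = 0.012). A gene on the opposite strand covers 8.71% of the exonic length of Tubgcp6, and whether the counting used strand is not stated. Plekha6 rested on 32, 31 and 31 reads in the AG221 samples, so counting error is part of its spread. The samples did not overlap in either gene, and vehicle had 92.2, 77.9 and 74.8 CPM of Tubgcp6.

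Several of these genes act in chromatin, transcription and division. Atad2, a bromodomain ATPase and E2F target, was at 286, 337 and 266 CPM against 520, 616 and 512 CPM (-0.89 ± 0.13, adjusted p = 0.012), and Gtf2a1, a subunit of the general factor TFIIA, had -0.72 ± 0.11 (adjusted p = 0.014). The centrosome protein Cep120 (-0.88 ± 0.15), the ubiquitin ligase gene G2e3 (-0.74 ± 0.12) and the F-box gene Fbxo38 (-0.75 ± 0.11) were called as well. Of 52 mitosis genes 2 were called, both lower with AG221, the spindle motor Kif11 (-0.74 ± 0.15, adjusted p = 0.027) and the separase gene Espl1 (-0.78 ± 0.19, adjusted p = 0.043). The list median was 0.03, and of 47 DNA replication genes 1 was called, Pold1 (-0.83 ± 0.18, adjusted p = 0.030, and 0.57 with GC content offsets, where its log2 fold change was -0.29). Over all genes tested 3.43% were called, 1.37% lower with AG221. The calls in these 2 lists are too few to set apart from those shares.

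Others restrain growth or act in protein turnover. Tsc2, which restrains mTORC1, was at 92.2, 121 and 103 CPM with AG221 and at 173, 205 and 168 CPM with ruxolitinib (-0.79 ± 0.14, adjusted p = 0.017). Usp9x, a deubiquitinase that stabilizes MCL1 among others, was at 120, 126 and 110 CPM against 254, 193 and 235 CPM (-0.94 ± 0.16, adjusted p = 0.016). Neither gene overlapped between the drugs, and vehicle had 209, 261 and 220 CPM of Usp9x. Mapkbp1, Pnpla6 and Khnyn had log2 fold changes of -1.33 ± 0.20, -0.95 ± 0.15 and -1.17 ± 0.20. Among the largest folds, Acss2, which makes acetyl-CoA from acetate, was at 9.19, 28.1 and 10.4 CPM against 54.1, 35.8 and 57.5 CPM (-1.63 ± 0.41, adjusted p = 0.047). Paqr4, Fbxo10 and Arhgef25 had log2 fold changes of -2.07 ± 0.50, -1.71 ± 0.35 and -1.68 ± 0.38.

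Early response genes, which external signals switch on within minutes, gave 0 calls of 36 (median -0.17). Jun was at 51.7, 365 and 65.8 CPM with AG221 and at 1024, 152 and 792 CPM with ruxolitinib (adjusted p = 0.14), and Dusp1, a MAPK phosphatase gene, at 50.3, 110 and 44.0 CPM against 246, 37.3 and 182 CPM (adjusted p = 0.25). A9 was the highest AG221 sample and A16 the lowest ruxolitinib sample in both. The list median was -0.48 without A9 and -0.02 with GC content offsets, so no direction is given.

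Cell type markers were checked in both groups. In bulk samples, fewer cells of a type and less RNA per cell cannot be told apart. Of 11 LSK markers 0 were called (median -0.24). Kit was at 984, 740 and 992 CPM with AG221 and at 1120, 1402 and 1306 CPM with ruxolitinib (adjusted p = 0.11). Ly6a, which encodes Sca-1 and is itself induced by interferon, was at 148, 109 and 129 CPM against 47.0, 44.6 and 42.9 CPM (1.52 ± 0.55, adjusted p = 0.12). Both genes encode antigens of the sort gate, and neither overlapped between the drugs.

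Of 14 mast cell and basophil markers 2 were called higher with AG221. The summed level of the 14 was 2610 to 2915 CPM with AG221 and 1757 to 1932 CPM with ruxolitinib. Their mean log2 CPM, relative to the vehicle mean, overlapped, at -0.19, 0.48 and 0.57 with AG221 and -0.55, -0.04 and -0.40 with ruxolitinib. Cpa3, carboxypeptidase A3 of mast cell granules, was at 268, 350 and 345 CPM against 124, 184 and 145 CPM (1.09 ± 0.25, adjusted p = 0.038). Srgn, the granule proteoglycan serglycin, was called too (0.63 ± 0.11, adjusted p = 0.019), and Fcer1a, the IgE receptor, had an adjusted p of 0.060. Of 15 monocyte and macrophage markers 1 was called, the interferon-inducible Fc receptor gene Fcgr1 (2.42 ± 0.53, adjusted p = 0.034), at 2.22, 1.36 and 1.6 CPM against 0.565, 0.299 and 0.112 CPM. Of these 15 markers 14 had a fold change above 0 (median 0.39). Of 19 neutrophil markers 0 were called and 17 had a fold change above 0 (median 0.49), with a summed level of 18490 to 21838 CPM against 12672 to 20200 CPM. In both lists ruxolitinib sample A14 had the highest mean log2 CPM of the 6 samples. Ms4a3, a marker of granulocyte and monocyte progenitors, was at 1105, 703 and 814 CPM against 549, 385 and 450 CPM (adjusted p = 0.061). The part of such cells in the results above was not tested.

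Of 16 erythroid markers 0 were called. Hbb-bs, adult beta-globin, was at 47.1, 109 and 52.4 CPM with AG221 and at 55.4, 609 and 53.2 CPM with ruxolitinib, so A16 alone was high. B-lineage, plasma cell, megakaryocyte, dendritic cell, eosinophil, and endothelial and stromal markers gave 0 calls in either direction. The Y-linked gene Ddx3y was between 136 and 206 CPM in all 6 samples, and Uty between 65.5 and 108 CPM, so the 2 groups were alike in these 2 genes. Over all 6 sex-linked markers the mean log2 CPM, relative to the vehicle mean, varied more and overlapped. It was 0.55, 0.12 and 0.31 with AG221 and 0.30, 0.64 and -0.34 with ruxolitinib.

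Genes that differed between untreated disease and WT were then followed in the AG221 and ruxolitinib samples. The vehicle and WT means do not use these samples, but the spread behind both sets of calls comes from the same fit. Genes of low spread are thus easier to call in both comparisons, and the part of this in the shares below was not tested. In vehicle over WT, 2747 genes (15.4%) were called higher and 3190 (17.9%) lower. The vehicle and WT samples also differ in the letter of their sample names, whose meaning is not given. They differed in sex-linked markers too, with a list mean of log2 CPM, relative to the vehicle mean, of -5.46, -5.24 and -5.13 in WT. In the vehicle samples it ran from -0.11 to 0.14. Plasma cell markers summed to 7097, 17022 and 5188 CPM in WT and to 204 to 365 CPM in vehicle. The part of these differences in the genes called was not tested. The 2747 genes had a median log2 fold change of 0.20 between AG221 and ruxolitinib, and 22% of them did not overlap with AG221 above against 8.08% with ruxolitinib above. The 3190 genes had a median of -0.20, and 9.53% and 8.87% of them did not overlap in these directions. Of the 2747 genes 115 (4.19%) were called higher and 59 (2.15%) lower with AG221, beside 2.06% and 1.37% over all genes, and of the 3190 genes 59 (1.85%) were called higher and 19 (0.596%) lower. Both medians kept their sign in every alternative fit. The balance of calls among the genes lower in vehicle did not, with 235 higher and 1349 lower under limma voom, 113 and 461 without A9, and 41 and 61 without A16.

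**Figure D5:**
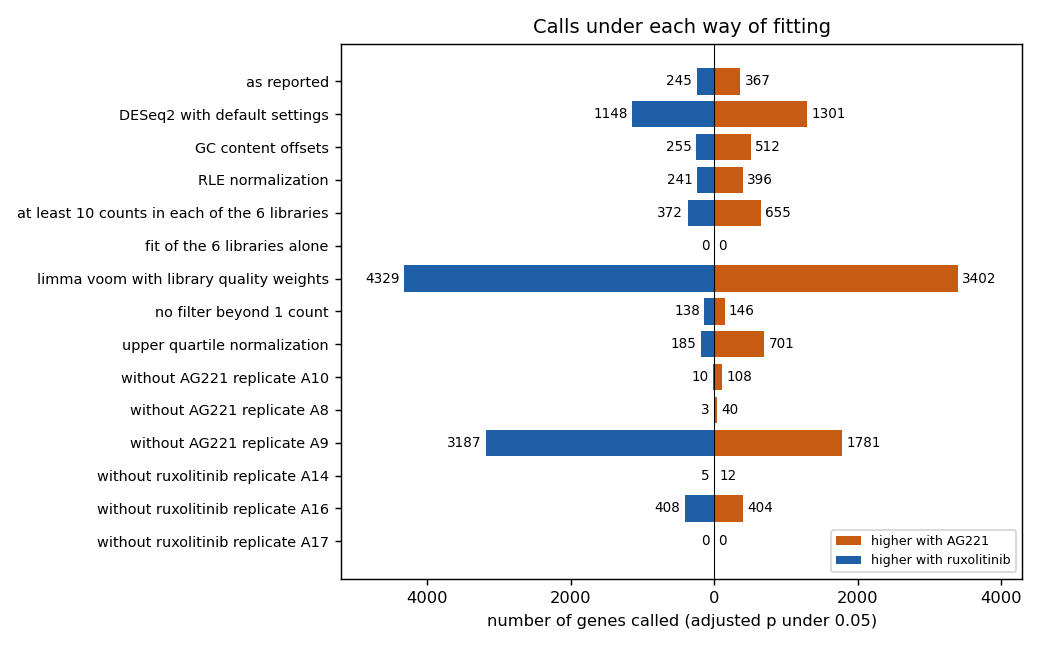
Number of genes called (x axis) higher with AG221 (orange, to the right) and higher with ruxolitinib (blue, to the left) in the reported fit and each alternative fit (y axis). The counts run from 0 without A17 or with the 6 samples alone to 3402 and 4329 with limma voom and sample quality weights.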

How the data were processed

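RNA-seq libraries of CD45.2+ LSK cells (SMARTer amplification) were aligned by the authors to mm10 with STAR 2.5.1a, and the deposited counts are raw reads per Ensembl gene from its counting mode. Strand setting and Ensembl release are not given in the sources used here, and the authors' normalized counts were not used. Symbols came from GENCODE M21 (GRCm38), which matched 44585 of 45232 IDs. Genes passing filterByExpr by group (17834) were TMM normalized and fitted in 1 quasi-likelihood model of 15 samples (edgeR 4.0.16, R 4.3.3, 10 residual degrees of freedom), with Benjamini-Hochberg adjustment over all of them. Folds are on a log2 scale with an SE. That SE is the absolute log2 fold change divided by the square root of the F statistic of the test.

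Genes named are Jak2, Idh2, the 12 smallest p-values and 5 largest folds (at least 5 CPM in the higher group) in each direction among called, non-overlapping genes, with predicted genes and pseudogenes only counted, up to 4 list members by p, and sex-linked genes. The 51 gene lists come from general knowledge. Members and lists were chosen with earlier results of these data known. The fit was tested on simulated counts with known changes. Total counts were 22004150 to 28369651 per sample, and genes of a few reads carry counting error that the SE includes. Alternatives were DESeq2 1.42.0, limma 3.58.1 voom with sample weights, other normalizations, filters, thresholds and sample sets, and GC content offsets. Results that need items withheld here are not reported.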

Additional observations from a re-analysis of the deposited data

How the results depend on the processing

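Depth was similar in the 6 samples and limits only genes of a few CPM. The number of genes called was 612 (367 higher and 245 lower with AG221) and moved with the fit. It was 197 (122 and 75) at a fold of at least 2 and 2449 (1301 and 1148) with DESeq2. With at least 10 counts in each of the 6 samples it was 1027 (655 and 372). It was 7731 (3402 and 4329) with limma voom and sample weights, and 284 (146 and 138) with no filter beyond 1 count. In the fit of the 6 samples alone it was 0 (0 and 0). That fit has fewer residual degrees of freedom and takes its spread from these 6 samples only. The spread in the reported fit, and so its adjusted p-values, also rest on vehicle, combined and WT samples. Every pair within those groups had a higher Pearson r than A9 or A16 had with samples of their own group. The pairs A8 with A10 and A14 with A17 did not have this lower r. The part of each difference in the fall to 0 was not tested. Upper quartile normalization gave 701 higher and 185 lower genes. Leaving out 1 sample gave 0 (without A17) to 4968 (without A9) calls, 0 to 1781 of them higher and 0 to 3187 lower. RLE normalization and GC content offsets stayed within 1.5 times of the reported count, with 637 and 767 calls. The genes behind these counts changed more among those lower with AG221. GC content offsets kept 348 of the 367 higher and 174 of the 245 lower genes. Upper quartile normalization kept 367 and 137. Apart from the named settings the cause was not tested.

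Of the genes lower in vehicle than in WT the median was -0.44 with limma voom, and between -0.48 (without A9) and -0.085 (without A14) with 1 sample left out. Of 79 genes named with alternatives, 75 kept 1 sign. Cd3d had a log2 fold change of 1.13 with limma voom. Hbb-bs lay between -2.27 and 0.37 with 1 sample left out, Uty between -0.23 and 0.076, with 0.029 under limma voom and 0.084 under upper quartile normalization, and Ddx3y between -0.011 and 0.26. No paired analysis was possible because the AG221 and ruxolitinib samples share no replicate numbers.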
